A study of Gallus gallus with 6 samples.

Results

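The 4405 genes described here lie on chicken (Gallus gallus) chromosomes 11 to 28, the microchromosomes of this description, and were expressed in the embryonic basilar papilla. A gene was included when the authors' pooled FPKM table placed its locus on one of these 18 chromosomes and it had at least 10 counts summed over the 6 libraries of the study. They were 33.1% of the 13304 genes of the count table that reached this minimum, and the table lists 15955 genes in all. A further 794 genes on these chromosomes stayed below the minimum, with no count at all in 386 and 1 to 9 counts in 408. At the edge of the rule, 13 genes had exactly 10 counts and 19 had 9. The comparison set was the 5957 genes on chromosomes 1 to 5 chosen in the same way, and 2237 genes on chromosomes 6 to 10 lay between the sets.

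Bird genomes combine a few large chromosomes with many small ones, the microchromosomes. In the chicken the small chromosomes are known for high gene density, high GC content, short introns and high recombination rates per base. They carry housekeeping genes as well as developmental regulators and members of signalling pathways.

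The basilar papilla is the auditory sensory organ of the bird inner ear and contains hair cells and supporting cells. On embryonic day 3, the right otocyst, from which the inner ear develops, was infected with RCAS(A), a replication-competent avian retrovirus without an added gene, as control, or with RCAS(A)-Wnt9a, which carries Wnt9a. Papillas were collected on embryonic day 6 and the RNA of 24 papillas was pooled for each library, so variation between embryos was averaged within a pool. Each group had 3 libraries, which the labels number 2, 3 and 4 for RCAS(A) and 1, 2 and 3 for RCAS(A)-Wnt9a. All embryos received a virus that can spread to other cells, and no uninfected papillas were analysed here.

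Library totals ran from 19200235 to 23017150 counts, of which 6073114 to 7374964 were on chromosomes 11 to 28. Levels are given as CPM, a gene's counts relative to the library total after scaling by TMM factors. Genes known from the otic epithelium were present in the RCAS(A) libraries, with mean levels of 365 CPM for OTOA, 146 for ISL1, 70.3 for SOX2, 65.2 for LMX1A and 35.4 for PAX2. WNT9A itself lies on chromosome 2 and was read first as a check of the labels. It stood at 7.90, 6.87 and 10.3 CPM in the control libraries and at 1340, 539 and 427 CPM in the RCAS(A)-Wnt9a libraries. Its log2 fold change was 6.53 (SE 0.70, edgeR quasi-likelihood test with Benjamini-Hochberg adjustment, adjusted p = 0.0307). The call was lost without any one of the RCAS(A) libraries or without RCAS(A)-Wnt9a replicate 2, with an adjusted p of up to 0.164, and with limma-voom, at 0.0574. The counts do not separate viral from endogenous message.

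The genes on chromosomes 11 to 28 were packed more densely than those on the large chromosomes. Measured from the first to the last listed gene, these 18 chromosomes covered 171 Mb and chromosomes 1 to 5 covered 604 Mb. There were 25.8 expressed genes per Mb on the former, 9.86 per Mb on the latter and 15.6 per Mb on chromosomes 6 to 10. The lowest density of the 18 was 16.1 genes per Mb on chromosome 12 and the highest was 77.4 on chromosome 16, of which the table covers only 0.478 Mb with 37 expressed genes. Every one of the 18 chromosomes was above the densest of chromosomes 1 to 5, which was chromosome 5 with 14.6 genes per Mb. Across the 18 chromosomes density fell with the covered length, with a Spearman rho of -0.92 that serves as a description only, because the covered length is also the denominator of the density.

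Loci were shorter on the small chromosomes. The locus span, taken as listed end minus start and therefore including introns, had a median of 10.1 kb with quartiles of 4.44 and 23.4 kb. On chromosomes 1 to 5 the median was 20.4 kb with quartiles of 7.94 and 48.9 kb. Spans under 5 kb made up 28.6% of the genes on chromosomes 11 to 28 and 15.8% of those on chromosomes 1 to 5, and spans over 80 kb made up 6.49% and 14.8%. The shortest chromosome median was 3.54 kb on chromosome 16 and the longest 16.6 kb on chromosome 13, which exceeds the 16.4 kb of chromosome 5. Chromosomes 6 to 10 had a median span of 16.5 kb over their genes. Their chromosome medians of 13.6 to 19.4 kb overlapped those of the 18. Across the 18 chromosomes the median span rose with covered length (Spearman rho 0.93, a description over 18 points that share 1 annotation). The span was known for 4333 of the 4405 genes, since 72 share their table row with other identifiers.

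Transcript length differed less than locus span. A length implied by the ratio of counts to pooled FPKM had a median of 2.04 kb over 3520 genes of chromosomes 11 to 28 and 2.35 kb over 4876 genes of chromosomes 1 to 5. The median locus was 5.15 times its implied transcript on the small chromosomes and 8.74 times on the large ones. The implied length rests on 2 quantities of different origin in the deposited tables and is approximate.

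**Figure D1:**
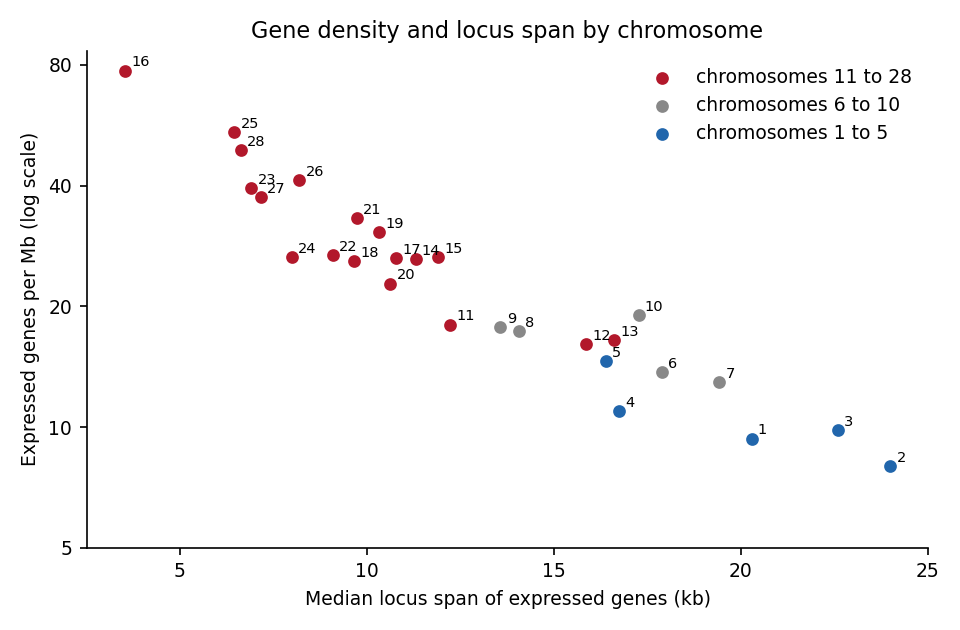
Each point is 1 chromosome, with the median locus span of its expressed genes in kb on the horizontal axis and expressed genes per Mb on a log vertical axis. Chromosomes 11 to 28 run from chromosome 16, at 3.54 kb and 77.4 genes per Mb, to chromosomes 12 and 13, which sit next to chromosome 5.

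By the authors' length-corrected values, expression per gene was similar between the sets. How well these values correct for length in short genes was not tested. In the authors' pooled FPKM values, which have 1 value per group and no replicate error, the median of the RCAS(A) group was 13.4 on chromosomes 11 to 28, with quartiles of 2.32 and 35.2. On chromosomes 1 to 5 it was 14.7, with quartiles of 2.98 and 35.1. Genes under 1 FPKM were 18.5% and 17.0% of the sets, and genes over 100 FPKM were 7.99% and 6.83%. Chromosomes 6 to 10 had a median of 13.2 FPKM in the RCAS(A) group. The chromosome medians of the 18 ran from 2.18 FPKM on chromosome 16, the region of the chicken major histocompatibility complex, to 18.2 FPKM on chromosome 15. In CPM, here without TMM scaling and not corrected for length, the median of the mean level was 26.6 on chromosomes 11 to 28. On chromosomes 1 to 5 it was 33.1.

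Counts per Mb were higher on the small chromosomes, and counts per gene were not. The 4405 genes took 32.0% of all counts and the 5957 genes on chromosomes 1 to 5 took 47.3%. Per Mb of covered length these shares were 0.187% and 0.0783%, whereas per 100 expressed genes they were 0.727% and 0.794%. Chromosomes 6 to 10 had 0.114% per Mb and 0.730% per 100 expressed genes. The densest output was on chromosome 28, with 0.468% of the counts per Mb. The 10 most abundant genes of chromosomes 11 to 28 had mean levels of 1649 to 3857 CPM and together 7.19% of the counts of all 4405. Of these 10, 9 had a listed locus under 13 kb, which some of them share with another identifier. None of the 10 was called changed by edgeR, and their log2 fold changes lay between -0.22 and 0.016. Only RBM3, a cold-induced RNA-binding protein gene on chromosome 28 written CIRBP in the authors' deposited table, carried a name among them. It stood at 2193, 2374 and 2088 CPM in the control libraries and 1853, 1971 and 1906 CPM with RCAS(A)-Wnt9a (log2 fold change -0.22, SE 0.07, edgeR quasi-likelihood test with Benjamini-Hochberg adjustment, adjusted p = 0.163). It passed with DESeq2, at an adjusted p of 0.0294.

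The share of counts from chromosomes 11 to 28 did not separate the groups. It was 32.0%, 32.1% and 32.3% in RCAS(A) replicates 2, 3 and 4, a mean of 32.1% ± 0.121 (SD, n = 3). In RCAS(A)-Wnt9a replicates 1, 2 and 3 it was 31.7%, 32.3% and 31.6%, a mean of 31.9% ± 0.374 (SD, n = 3). Replicates 1 and 3 of RCAS(A)-Wnt9a lay below all controls and replicate 2 lay above them, so the groups overlapped. The difference of the means was -0.277 percentage points, and it was -0.493 without RCAS(A)-Wnt9a replicate 2, -0.178 without its replicate 1 and -0.161 without its replicate 3. For chromosomes 1 to 5 the shares were 47.2% ± 0.159 and 47.4% ± 0.261 (SD, n = 3 each), and these groups overlapped as well.

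By single chromosome, 13 of the 18 had a lower mean share with RCAS(A)-Wnt9a and 5 a higher one. Only chromosomes 27 and 28 had no overlap between the libraries of the groups, and both were lower. Among single genes, 19.0% of all tested genes separated in this way, and the shares of the 2 chromosomes were not tested. Chromosome 28 held 2.23%, 2.26% and 2.26% of the counts in the controls and 2.11%, 2.22% and 2.16% with RCAS(A)-Wnt9a. On chromosome 27 the group means were 1.31% and 1.27%. In RNA from whole pooled organs, a smaller share of cells that express a gene and less RNA of it per cell cannot be told apart.

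**Figure D2:**
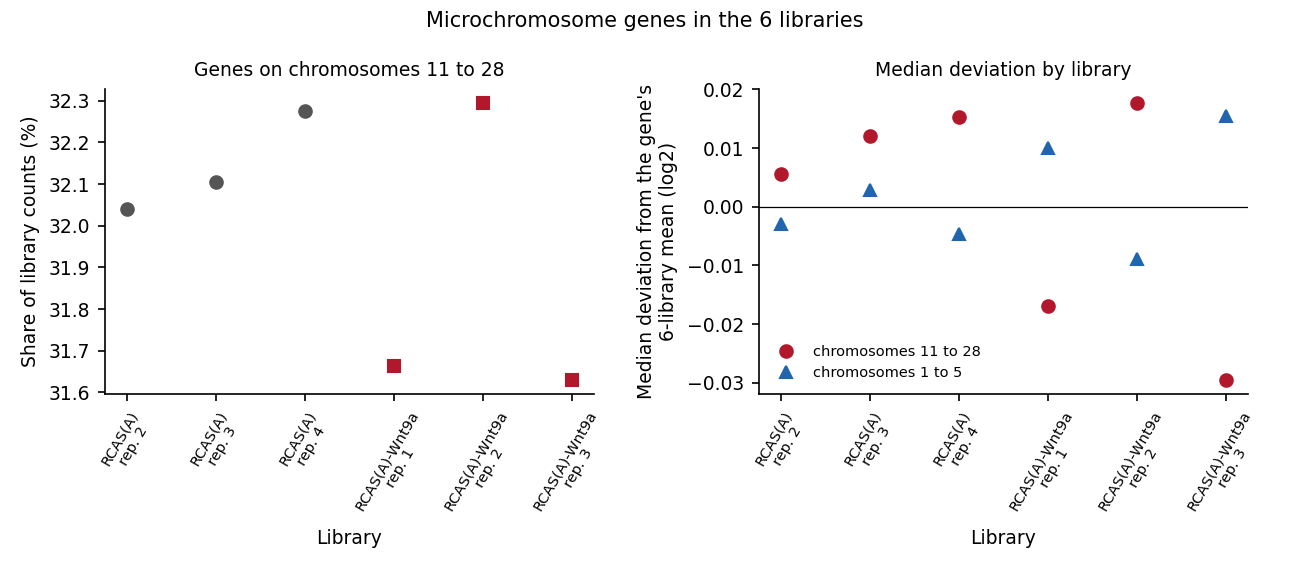
The left panel gives the percent of each library's counts on chromosomes 11 to 28, and the right panel the median over genes of the log2 deviation from the gene's 6-library mean, for chromosomes 11 to 28 (circles) and 1 to 5 (triangles), with the 3 RCAS(A) libraries first. RCAS(A)-Wnt9a replicates 1 and 3 sit at 31.7% and 31.6% and replicate 2 at 32.3%. In the right panel replicate 2 lies above all controls for chromosomes 11 to 28 and below them for chromosomes 1 to 5. The vertical axes do not start at 0.

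Gene by gene, the log2 fold changes on chromosomes 11 to 28 lay slightly lower than on the large chromosomes. Of the 4405 genes, 4007 had enough counts for the test, and their median log2 fold change was -0.022 with quartiles of -0.11 and 0.064. The median was 0.0035 over the 5463 tested genes on chromosomes 1 to 5 and -0.0037 over all 12133 tested genes. A positive fold change was fitted for 42.5% of genes on chromosomes 11 to 28 and 51.4% on chromosomes 1 to 5. Each of the 18 chromosomes had a negative median, from -0.084 on chromosome 16 to -0.0023 on chromosome 13, against 2 of the 5 large chromosomes. The sign of a median near 0 depends on the scaling. With DESeq2 size factors the median was -0.019 on chromosomes 11 to 28 and 0.0064 on chromosomes 1 to 5. With library size alone it was -0.027 and -0.0018. The difference between the sets was -0.025 with either. The difference between the sets was not tested, since genes of 1 library are not independent replicates and the libraries of the groups overlapped.

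By library, the median over genes of chromosomes 11 to 28 of the log2 deviation from the gene's mean was 0.0056, 0.012 and 0.015 in the controls. It was -0.017, 0.018 and -0.029 in RCAS(A)-Wnt9a replicates 1, 2 and 3. RCAS(A)-Wnt9a replicate 2 thus had the highest value of the 6 libraries while the other libraries of its group had the lowest. Leaving out that library gave a median log2 fold change of -0.041. Leaving out replicate 1 or replicate 3 of the same group gave -0.016 or -0.011.

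The shift moved with locus span on both sets of chromosomes. The median log2 fold change of genes with a span under 5 kb was -0.062 on chromosomes 11 to 28 and -0.047 on chromosomes 1 to 5. From 5 to 10 kb it was -0.041 and -0.024, and from 10 to 20 kb it was -0.014 and -0.0078. From 20 to 40 kb the medians were 0.0085 and 0.019, from 40 to 80 kb they were 0.031 and 0.038, and over 80 kb they were 0.012 and 0.041. The genes of the small chromosomes had the lower median in 6 of 6 span classes, by 0.0062 to 0.029. The classes share the same libraries and are not independent. By library, the median deviation on chromosomes 11 to 28 was below that on chromosomes 1 to 5 in every class in RCAS(A)-Wnt9a replicates 1 and 3. In replicate 2 it was above in every class, for example 0.021 against -0.0081 under 5 kb and 0.053 against 0.011 over 80 kb. The difference between the 2 sets was -0.025 over all genes and -0.013 as the mean of the within-class differences weighted by the number of genes on chromosomes 11 to 28.

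The span trend also separated libraries of the same group. The median deviation of genes under 5 kb minus that of genes over 80 kb, taken over all chromosomes, was -0.0027, 0.12 and 0.024 in RCAS(A) replicates 2, 3 and 4. It was -0.072, -0.0063 and -0.060 in RCAS(A)-Wnt9a replicates 1, 2 and 3, so that RCAS(A) replicate 2 and RCAS(A)-Wnt9a replicate 2 nearly coincided. The part of span, GC content or RNA quality in the shift was not tested. Over the 18 chromosomes, the median span and the median log2 fold change had a Spearman rho of 0.78, given as a description because all points share the same 6 libraries.

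**Figure D3:**
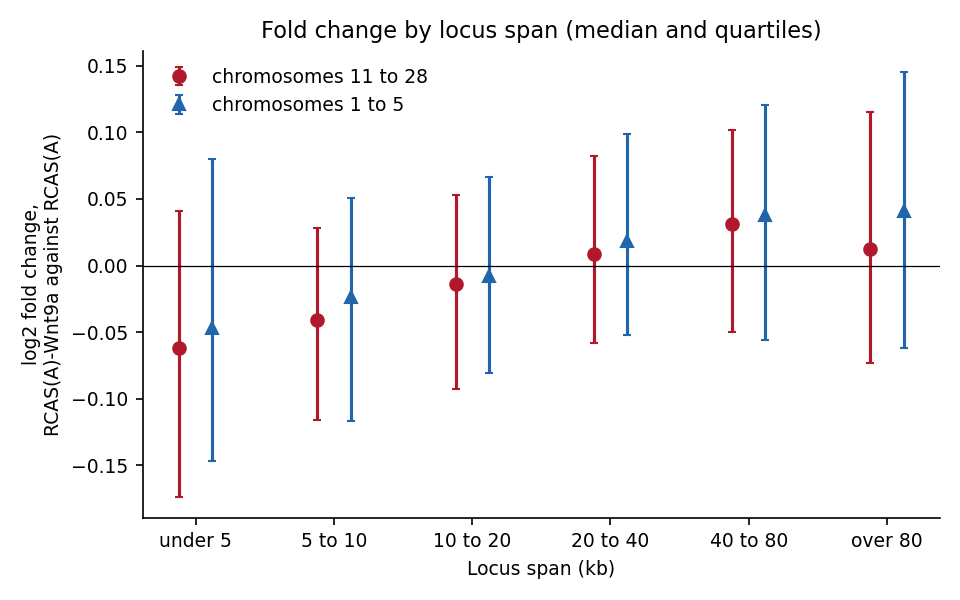
The median log2 fold change of RCAS(A)-Wnt9a against RCAS(A), with bars from the lower to the upper quartile of genes, is plotted by class of locus span in kb for chromosomes 11 to 28 (circles) and 1 to 5 (triangles). Medians run from -0.062 and -0.047 under 5 kb to 0.012 and 0.041 over 80 kb, and the bars of the sets overlap in every class.

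On chromosomes 11 to 28, 62 genes changed between the groups, 38 upwards and 24 downwards under RCAS(A)-Wnt9a. A gene was called changed at an adjusted p under 0.05 by the quasi-likelihood test of edgeR. They were 1.55% of the 4007 genes tested there, against a background of 2.27% over all 12133 genes. The rises were 0.948% against 1.43% and the falls 0.599% against 0.841%. On chromosomes 1 to 5, 150 genes or 2.75% were called, and on chromosomes 6 to 10 50 genes or 2.48%. Of the 4007 genes on chromosomes 11 to 28, 34 were called with at least 1.5-fold change. The background was 116 of 12133, or 0.956%, and the shares lay closer together than without the fold criterion. Chromosomes 1 to 5 had 60 such genes of 5463 tested. At least 2-fold changes were called for 11 of the 4007, 6 up and 5 down, against 49 of the 12133. Leaving out RCAS(A) replicate 4 gave 37 called genes or 0.917%, where the background was 1.19%. With DESeq2 the number was 104 or 2.63%, where the background was 3.64%.

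All 62 had libraries that did not overlap between the groups. Such separation was seen in 682 genes or 17.0% of chromosomes 11 to 28, against 19.0% of all tested genes and 20.7% of chromosomes 1 to 5. Genes higher in all RCAS(A)-Wnt9a libraries than in every control were 7.19% on chromosomes 11 to 28, below the background of 9.82%. Genes lower in all of them were 9.83%, against 9.16%. Called genes were found on 15 of the 18 chromosomes and on none of chromosomes 16, 25 and 28, which had 30, 106 and 206 tested genes. At an unadjusted p under 0.05 the shares were 10.6% on chromosomes 11 to 28, 14.6% on chromosomes 1 to 5 and 12.8% overall.

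The smaller share of called genes was seen in every span class and every class of expression used. Under 5 kb it was 0.579% (6 genes) on chromosomes 11 to 28 and 2.96% (23 genes) on chromosomes 1 to 5. This was the widest gap of the span classes. From 5 to 10 kb it was 1.29% and 1.66%, and from 10 to 20 kb 1.63% (14 genes) and 1.86% (19 genes). From 20 to 40 kb it was 1.51% and 2.17%, and from 40 to 80 kb 3.24% (11 genes) and 3.51% (29 genes). Over 80 kb it was 3.85% and 4.76%. By average log2 CPM the shares were 0.709% and 1.31% up to 3, 1.81% and 3.19% from 3 to 5, 2.13% and 2.63% from 5 to 7, and 1.13% and 4.16% above 7. The shares above 7 rest on 7 and 39 called genes. The called genes on the small chromosomes had a median span of 18.8 kb, against 10.6 kb for all tested genes there. The median size of a called log2 fold change was 0.61 on chromosomes 11 to 28 and 0.53 on chromosomes 1 to 5. None of these differences between sets of genes was tested, and symbols were at hand for 61 of the 62.

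Genes of the canonical Wnt pathway rose by between 0.33 and 1.70 on the log2 scale. Wnt ligands bind Frizzled receptors, stabilise beta-catenin and act on transcription through TCF/LEF factors, and several target genes encode inhibitors of the pathway itself. Of 28 genes in a list of canonical Wnt targets and feedback regulators, 5 lay on chromosomes 11 to 28 with a name, and all 5 rose. Names were at hand only for genes in the authors' deposited tables of changed genes, and 61 of the 114 named and tested genes on chromosomes 11 to 28, or 53.5%, were called. Counts over named list genes are therefore neither comparable with the share over all tested genes nor independent evidence of a change or its direction.

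NOTUM (ENSGALG00000002900, chromosome 18, 5023601 to 5028361 as listed on galGal4), a secreted enzyme that removes the lipid Wnt proteins need for activity, had 23.5, 23.6 and 22.9 CPM in the controls and 72.0, 67.7 and 56.6 CPM with RCAS(A)-Wnt9a. All 3 RCAS(A)-Wnt9a libraries lay above the controls, whose values were close together. The log2 fold change was 1.49 (SE 0.09, edgeR quasi-likelihood test with Benjamini-Hochberg adjustment, adjusted p = 2.01e-06), the smallest p of the 62 genes.

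TCF7 (ENSGALG00000006480, chromosome 13, 15239291 to 15297080), a TCF/LEF transcription factor, was expressed at a low level, with 1.08, 1.28 and 1.63 CPM in the controls and 4.73, 5.21 and 2.97 CPM with RCAS(A)-Wnt9a. It rose by 1.70 on the log2 scale (SE 0.26, edgeR adjusted p = 0.00306), the largest rise among the named genes of chromosomes 11 to 28 with an average log2 CPM of at least 1. ZNRF3 (chromosome 15, 7788956 to 7795744), a ubiquitin ligase that removes Frizzled receptors from the membrane, went from 24.8, 26.4 and 26.5 CPM to 41.2, 45.9 and 36.6 CPM (log2 fold change 0.67, SE 0.09, edgeR adjusted p = 0.00133).

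NKD1 (chromosome 11, 5725576 to 5829415), an inhibitor that binds Dishevelled, had nearly identical control values of 47.0, 47.2 and 47.1 CPM, and 66.6, 68.1 and 63.7 CPM with RCAS(A)-Wnt9a. Its log2 fold change was 0.49 (SE 0.06, edgeR adjusted p = 0.000903). AXIN2 (chromosome 18, 7895217 to 7917904), a scaffold of the complex that degrades beta-catenin, rose least, from 70.2, 75.9 and 70.6 CPM to 85.9, 91.9 and 94.3 CPM (log2 fold change 0.33, SE 0.06, edgeR adjusted p = 0.0148). AXIN2 was named after its values were seen. Its call was lost without RCAS(A) replicate 2 or 4 or RCAS(A)-Wnt9a replicate 2, with an adjusted p of up to 0.0946 (edgeR). Control and RCAS(A)-Wnt9a libraries did not overlap in any of the 5 genes, as was the case in all 62 called genes.

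FZD10 was the 1 gene with a name here from a list of 37 Wnt ligands and receptors, of which 5 had a name on any chromosome, and it fell. FZD10 (ENSGALG00000002652, chromosome 15, 3411517 to 3413275), a Frizzled receptor, had 84.0, 86.6 and 81.2 CPM in the controls and 27.2, 43.3 and 42.3 CPM with RCAS(A)-Wnt9a. All RCAS(A)-Wnt9a libraries lay below the controls, with replicate 1 the lowest. The log2 fold change was -1.16 (SE 0.16, edgeR adjusted p = 0.0151). The call was kept in 2 of 6 fits that left out 1 library, and was lost without any one of the RCAS(A) libraries or without RCAS(A)-Wnt9a replicate 3, with an adjusted p of up to 0.0729 (edgeR). Its mean went from 83.9 ± 2.70 to 37.6 ± 9.01 CPM (SD, n = 3 each).

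**Figure D4:**
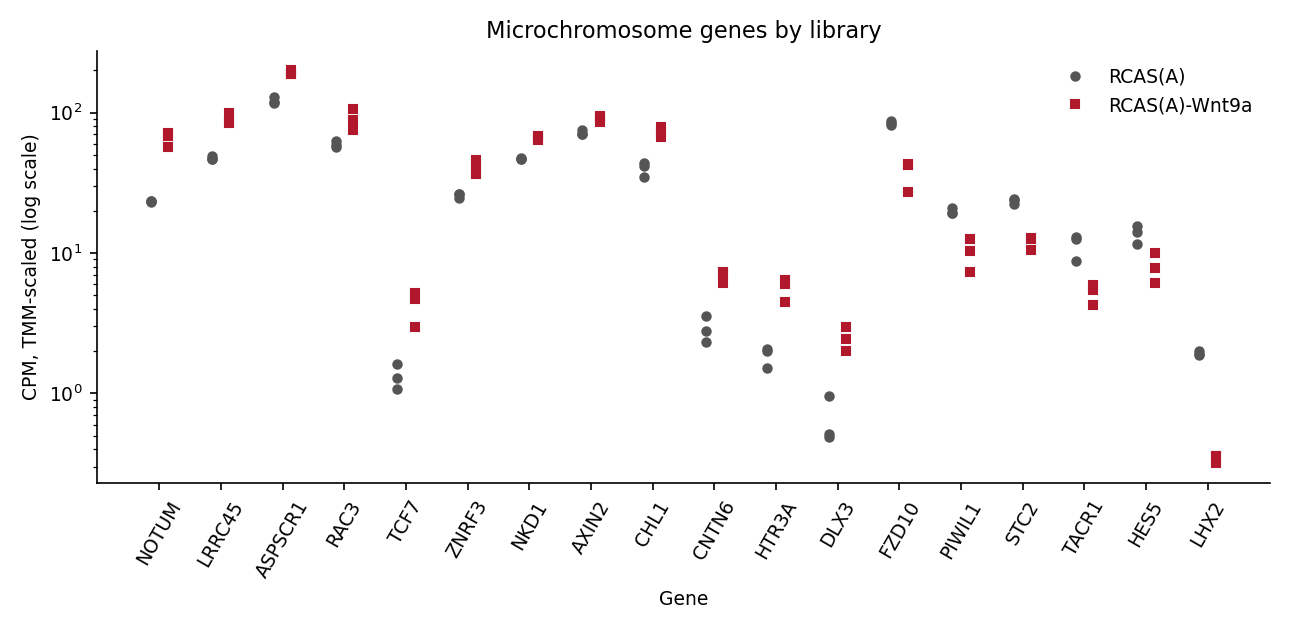
TMM-scaled CPM of 18 genes of chromosomes 11 to 28 in each library is plotted on a log axis, with circles for the 3 RCAS(A) libraries and squares for the 3 RCAS(A)-Wnt9a libraries. In each of the 18 genes, as in all 62 called genes, the groups do not overlap. Examples are NOTUM at 22.9 to 23.6 against 56.6 to 72.0 CPM and LHX2 at 1.87 to 2.01 against 0.318 to 0.360 CPM.

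NOTUM stood beside other called genes. In order of position, RAC3, LRRC45, ASPSCR1 and NOTUM are neighbours on chromosome 18 between 4963074 and 5028361, a stretch of 65.3 kb. The listed gaps are 0.798, 0.639 and 5.24 kb. ASPSCR1 shares its listed locus with another identifier, so the gaps of 0.639 and 5.24 kb are those of the shared locus. All 4 rose. LRRC45, a centrosomal linker protein, went from 46.9, 46.9 and 49.2 CPM to 98.8, 87.9 and 84.3 CPM (log2 fold change 0.92, SE 0.07, edgeR adjusted p = 1.49e-05).

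ASPSCR1, a tether of glucose transporter vesicles, went from 119, 130 and 117 CPM to 199.95, 189 and 189.9 CPM (log2 fold change 0.66, SE 0.06, edgeR adjusted p = 6.85e-05). RAC3 had 59.2, 57.0 and 62.4 CPM in the controls and 106, 88.5 and 75.4 CPM with RCAS(A)-Wnt9a (log2 fold change 0.60, SE 0.11, edgeR adjusted p = 0.0168). The RAC3 call was lost without any one of the RCAS(A) libraries or without RCAS(A)-Wnt9a replicate 2, with an adjusted p of up to 0.108 (edgeR). The other 3 genes kept theirs in all 6 fits. RAC3 and ASPSCR1 were named after their values were seen. Of the 5 tested genes on each side of the stretch, none was called, and their log2 fold changes lay between -0.06 and 0.45. The sources used here do not say how strand and overlapping genes were counted, and reads that run from one gene into the next cannot be told apart from the neighbour's own.

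In all, 12 pairs of consecutive called genes on chromosomes 11 to 28 lay within 200 kb, and 10 of these pairs moved in the same direction. Of all called genes there 61.3% rose. The rate of shared direction on other chromosomes, or among neighbours that were not called, was not determined. In the 6 pairs with a gap under 10 kb both genes moved together. Besides the 3 pairs of the NOTUM stretch, these were FANCA and SPIRE2 on chromosome 11, CARD19 and SUSD3 on chromosome 12, and MPZL2 and CD3E on chromosome 24. Tested genes that were not called can lie between called ones. There was 1 between FANCA and SPIRE2, with a log2 fold change of -0.97. In the stretch from SCN4B to CD3E on chromosome 24 there were 3, from -0.21 to 0.79. These pairs were read after the values were seen.

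FANCA, a Fanconi anaemia DNA repair gene, and SPIRE2, an actin nucleator gene, both fell, by 0.38 and 0.56 on the log2 scale. CARD19 rose from 45.4, 52.4 and 45.5 CPM to 73.9, 76.6 and 73.4 CPM (log2 fold change 0.64, SE 0.07, edgeR adjusted p = 0.000282), and SUSD3, 5.04 kb away, rose by 0.48. MPZL2, a cell adhesion protein gene, and CD3E, a subunit of the T cell receptor complex, are 0.949 kb apart and rose by 0.45 and 0.67. The calls of CARD19, MPZL2 and CD3E were kept without any single library. Those of FANCA and SUSD3 were kept in 1 of 6 such fits and that of SPIRE2 in 4 of 6, where it was lost without RCAS(A) replicate 2 or 4. FANCA kept its call only without RCAS(A)-Wnt9a replicate 2, and SUSD3 only without RCAS(A)-Wnt9a replicate 3.

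A longer stretch on chromosome 15, from 3327007 to 3975370, held called genes of both directions. PIWIL1, which acts with small RNAs in the germ line, and FZD10 fell, and the transmembrane protein genes TMEM132D and TMEM132C rose. PIWIL1 went from 21.1, 19.27 and 19.24 CPM to 7.38, 12.6 and 10.3 CPM (log2 fold change -0.98, SE 0.16, edgeR adjusted p = 0.00635). TMEM132D went from 23.9, 16.6 and 22.2 CPM to 43.7, 37.5 and 37.9 CPM (log2 fold change 0.93, SE 0.12, edgeR adjusted p = 0.00198). TMEM132C rose by 0.76, and its call was lost without RCAS(A) replicate 2 or 3. The 2 tested genes between them were not called, and no flanking gene was.

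Of the list of prosensory and otic regulators, 4 named genes lay on these chromosomes, and DLX3 alone of these passed. DLX3 (chromosome 27, 2989224 to 2994344), a homeobox transcription factor of otic and ectodermal development, was expressed at a low level, with 0.518, 0.961 and 0.493 CPM in the controls and 2.97, 2.45 and 2.02 CPM with RCAS(A)-Wnt9a. It rose by 1.91 on the log2 scale (SE 0.31, edgeR adjusted p = 0.00411). LHX2 (chromosome 17, 9224739 to 9243501), a LIM-homeodomain transcription factor, fell by 2.46 (SE 0.30, edgeR adjusted p = 0.000513). Its control libraries held 1.90, 2.01 and 1.87 CPM, and the RCAS(A)-Wnt9a libraries 0.360, 0.356 and 0.318 CPM.

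TSHZ3 (chromosome 11, 8709892 to 8772492), a zinc finger homeobox factor, had 31.2, 33.4 and 30.7 CPM in the controls and 55.2, 59.9 and 51.2 CPM with RCAS(A)-Wnt9a (log2 fold change 0.80, SE 0.08, edgeR adjusted p = 0.000101). DLX3, LHX2 and TSHZ3 each had groups without overlap, like all 62 called genes, and kept the call without any single library. LHX2 and TSHZ3 were named for their size of change or p and are in none of the lists. The other listed regulators, the T-box factors TBX3 and TBX2 and the homeobox factor MSX2, had log2 fold changes of 0.86, 0.48 and 2.31, with edgeR adjusted p of 0.0501, 0.0598 and 0.0567. MSX2 stood at a low level, with 0.129, 1.10 and 0.493 CPM in the controls and 3.74, 1.96 and 2.87 CPM with RCAS(A)-Wnt9a. The SE of its log2 fold change was 0.51.

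HES5 (chromosome 21, 1432927 to 1434563), a transcriptional repressor induced by Notch, had 15.7, 11.6 and 14.2 CPM in the controls and 10.1, 7.88 and 6.10 CPM with RCAS(A)-Wnt9a. It fell by 0.78 on the log2 scale (SE 0.18, edgeR adjusted p = 0.0381). This call was lost when library size alone was used for scaling and without RCAS(A) replicate 2 or 4 or RCAS(A)-Wnt9a replicate 2 or 3. OTOA on chromosome 14, the otoancorin gene of the inner ear, had 370, 366 and 358 CPM in the controls and 216, 307 and 267 CPM with RCAS(A)-Wnt9a, and missed the threshold (log2 fold change -0.47, edgeR adjusted p = 0.0658). ATP2B2 (chromosome 12), the calcium pump of hair bundles, fell from 32.4, 29.9 and 30.8 CPM to 22.9, 22.8 and 22.7 CPM (log2 fold change -0.45, SE 0.08, edgeR adjusted p = 0.0101), and lost its call without RCAS(A) replicate 2 or 4, at up to 0.0794.

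Among secreted signals and receptors, PDGFA and BMP7 rose and STC2 and TACR1 fell. PDGFA (chromosome 14), a platelet-derived growth factor chain, went from 21.0, 24.0 and 22.4 CPM to 31.8, 30.8 and 34.0 CPM (log2 fold change 0.52, SE 0.09, edgeR adjusted p = 0.00572). BMP7 (chromosome 20), a bone morphogenetic protein, was abundant, with 355, 350 and 387 CPM in the controls and 423, 441 and 496 CPM with RCAS(A)-Wnt9a. Its log2 fold change was 0.32 (SE 0.07, edgeR adjusted p = 0.0345), a call kept in only 1 of 6 fits with a library left out, the one without RCAS(A)-Wnt9a replicate 1, with an adjusted p of up to 0.163. Of the list of BMP and TGF-beta pathway genes, 3 named genes lay on these chromosomes, of which BMP7 and TGFBI rose and ID3 was not called.

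STC2 (chromosome 13), a secreted glycoprotein of the stanniocalcin family, had 24.4, 22.5 and 23.8 CPM in the controls and 10.5, 12.8 and 12.5 CPM with RCAS(A)-Wnt9a. It fell by 0.98 on the log2 scale (SE 0.11, edgeR adjusted p = 0.000282). TACR1 (chromosome 22), the receptor of the peptide substance P, fell from 12.5, 8.74 and 12.9 CPM to 5.45, 5.87 and 4.30 CPM (log2 fold change -1.12, SE 0.18, edgeR adjusted p = 0.00411). FAM19A4 (chromosome 12), a chemokine-like secreted protein, had a log2 fold change of -0.59 (edgeR adjusted p = 0.0146) and lost its call without any one of the RCAS(A) libraries. GFPT2 (chromosome 13), an enzyme of hexosamine synthesis rather than a signal, had the smallest p of its chromosome, at 94.6, 94.9 and 102 CPM in the controls and 151, 147 and 145 CPM with RCAS(A)-Wnt9a (log2 fold change 0.61, SE 0.06, edgeR adjusted p = 0.000101).

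CCR7 (chromosome 27), a chemokine receptor, and HTR3A (chromosome 24), a subunit of the serotonin-gated cation channel, rose from low levels. HTR3A had 2.07, 2.01 and 1.53 CPM in the controls and 6.03, 6.45 and 4.46 CPM with RCAS(A)-Wnt9a (log2 fold change 1.59, SE 0.21, edgeR adjusted p = 0.00117). CCR7 had 1.94, 2.15 and 1.68 CPM against 4.23, 4.81 and 3.93 CPM (log2 fold change 1.17, SE 0.20, edgeR adjusted p = 0.00651). Both kept the call without any single library. SCN4B (chromosome 24), a beta subunit of sodium channels, had the smallest p of that chromosome, with 14.7, 15.5 and 15.9 CPM against 27.7, 27.5 and 24.8 CPM (log2 fold change 0.80, SE 0.10, edgeR adjusted p = 0.000513).

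Of the list of extracellular matrix and adhesion genes, 4 named genes lay on these chromosomes, of which CHL1 and MPZL2 rose and 2 were not called. CHL1 (ENSGALG00000007911, chromosome 12, 17219614 to 17297334) and CNTN6 (chromosome 12, 17553474 to 17631889), adhesion molecules of the immunoglobulin superfamily, are consecutive tested genes. CHL1 went from 43.8, 35.1 and 41.7 CPM to 78.8, 72.5 and 67.6 CPM (log2 fold change 0.86, SE 0.09, edgeR adjusted p = 0.000196). CNTN6 went from 3.54, 2.79 and 2.32 CPM to 6.12, 7.17 and 7.32 CPM (log2 fold change 1.24, SE 0.19, edgeR adjusted p = 0.00300).

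CNTN3, a contactin gene nearby on chromosome 12 that was named after its values were seen, fell by 0.50 on the log2 scale (edgeR adjusted p = 0.0161) and lost its call without any one of the RCAS(A) libraries. MXRA8 (chromosome 21), an immunoglobulin-domain membrane protein, rose from 34.9, 44.2 and 35.3 CPM to 61.4, 69.6 and 62.6 CPM (log2 fold change 0.76, SE 0.09, edgeR adjusted p = 0.00081). TGFBI (chromosome 13), a matrix protein induced by TGF-beta, rose by 0.41 (edgeR adjusted p = 0.0176), a call lost without RCAS(A) replicate 2 or 4 or RCAS(A)-Wnt9a replicate 2. The collagen gene COL5A1 and the tenascin gene TNC had log2 fold changes of 0.27 and 0.46 and did not pass. The named markers of periotic mesenchyme, 8 of a list of 25, summed to 1425 to 1550 CPM in the controls and 1701 to 1922 CPM with RCAS(A)-Wnt9a. Names were at hand only for genes the authors listed as changed, so this sum does not stand for the list and is not independent evidence. None of the 8 lies on chromosomes 11 to 28, and their part in these rises was not tested.

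The other named genes belong to none of the lists. LZTS1 (chromosome 22), a leucine zipper protein, rose by 0.88 on the log2 scale (edgeR adjusted p = 0.00258), WBSCR17 (chromosome 19), of the family of enzymes that start O-glycosylation, by 0.46 (edgeR adjusted p = 0.00218), and PTPRU (chromosome 23), a receptor tyrosine phosphatase, by 0.31 (edgeR adjusted p = 0.0279). PTPRU lost its call without RCAS(A) replicate 2 or 3 or RCAS(A)-Wnt9a replicate 2. WSCD2 (chromosome 15) fell from 83.9, 84.0 and 89.9 CPM to 47.3, 58.7 and 61.5 CPM (log2 fold change -0.62, SE 0.09, edgeR adjusted p = 0.00218).

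MYO1H (chromosome 15), an unconventional myosin, had 14.8, 15.4 and 10.95 CPM in the controls and 3.24, 7.39 and 5.63 CPM with RCAS(A)-Wnt9a (log2 fold change -1.34, SE 0.26, edgeR adjusted p = 0.0369). Its call was lost without RCAS(A) replicate 2 or 3 or RCAS(A)-Wnt9a replicate 3. MEIOB (chromosome 14), a meiotic DNA-binding protein, had a log2 fold change of -0.98 (edgeR adjusted p = 0.0213), and its call was lost without any one of the RCAS(A) libraries or without RCAS(A)-Wnt9a replicate 2. TMEM9 (chromosome 26), a lysosomal membrane protein, had one of -0.68 (edgeR adjusted p = 0.00964), lost only without RCAS(A) replicate 3.

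Of the muscle markers, 3 named genes lay on these chromosomes, of which 1 fell and 2 were not called. TNNC2 (chromosome 20), the fast skeletal troponin C, fell from 37.8, 46.8 and 35.2 CPM to 26.1, 29.8 and 26.6 CPM (log2 fold change -0.54, SE 0.11, edgeR adjusted p = 0.0167), a call lost without RCAS(A) replicate 3 or RCAS(A)-Wnt9a replicate 3. The troponins TNNI1 and TNNT2 on chromosome 26 did not pass, with log2 fold changes of -1.11 and -1.57. The 6 named muscle markers of a list of 15 summed to 48.2 to 75.5 CPM in the controls and 32.5 to 35.1 CPM with RCAS(A)-Wnt9a, and TNNC2 supplied most of each sum. Without TNNC2 the other 5 summed to 11.5 to 28.7 CPM and 5.30 to 7.27 CPM, with RCAS(A) replicate 3 the highest. Their part in the TNNC2 result was not tested. The named markers are again only those the authors listed as changed, so these sums do not stand for the list and are not independent evidence.

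None of the 5 named ribosomal protein genes, of 73 listed, was called by edgeR, and their median log2 fold change was -0.28. Being named, these 5 came from the authors' tables of changed genes, so the median does not stand for the list. RPL38 on chromosome 18 had the value nearest the threshold among those chosen, with 137, 133 and 120.0 CPM in the controls and 91.8, 99.96 and 118 CPM with RCAS(A)-Wnt9a (log2 fold change -0.33, edgeR adjusted p = 0.0951). RPL22 on chromosome 21 had a log2 fold change of -0.26 (edgeR adjusted p = 0.101). TRIM25 on chromosome 18, of the interferon response, had one of -0.46 (edgeR adjusted p = 0.0615). With DESeq2, RPL38, RPL22 and TRIM25 passed, at adjusted p of 0.0211, 0.0352 and 0.0268. Over all lists, 30 of 109 named list genes lay on chromosomes 11 to 28, of which 11 rose, 4 fell and 15 were not called, a share near the 53.5% called among all named genes there.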

How the data were processed

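RNA was measured in 6 libraries, 3 per group, each a pool of 24 basilar papillas. Sample titles gave the group and replicate number. The labels call the pools biological replicates, and p-values measure the spread between these pools. The galGal4 build, TopHat2, DESeq, DESeq2 and edgeR are named in the submitters' processing notes. The tool that counted reads, its handling of strand and the gene models were not given in the sources used here. Whole-number counts for each Ensembl gene and library were deposited, and a second deposited table gives 1 pooled FPKM per group with the locus. The authors' table from DESeq2 lists log2 fold changes and p-values beside a Wald score and baseMean, a normalized signal, and the authors' table from edgeR lists log2 fold changes and p-values. Both list only changed genes and were used for names.

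The 12133 genes passing filterByExpr were scaled by TMM. The test was edgeR 4.0.16 in R 4.3.3, with robust glmQLFit and two-sided glmQLFTest, Benjamini-Hochberg adjustment over all tested genes and a threshold of 0.05. Alternatives were DESeq2 1.42.0, limma-voom (limma 3.58.1), DESeq2 size factors, library size alone, other filters, a replicate block, a 1.5-fold criterion, chromosomes 13 to 28, and leaving out each library. Summaries of level over a set of genes used CPM from library totals without TMM scaling, also as log2(CPM + 1). Implied lengths used genes with at least 1 FPKM and 30 counts. Tables were made in Python 3.11.15 (pandas 2.3.3, scipy 1.17.1). Replicates of a group differed by more than counting noise in every pair and correlated at r = 0.992 to 0.996 across genes.

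Names came from the authors' tables, matched to RefSeq symbols for names only (493 genes, 116 of them here). Named were WNT9A, the 10 largest called rises and 10 largest falls among genes whose groups did not overlap and whose average log2 CPM was 1 or more, the smallest p per chromosome, the 10 most abundant genes, and up to 4 called genes, or 2 as values, from each of 22 lists. Members and lists were chosen with earlier results of these data known, and span and expression classes after the data were seen. Sequences were not analysed here.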

Additional observations from a re-analysis of the deposited data

How the results depend on the processing

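In 14 of 14 fits the median log2 fold change and the called share were lower on chromosomes 11 to 28 than on chromosomes 1 to 5. The fits reuse the same 6 libraries, so their agreement is not independent evidence. The difference of the medians was -0.056 without RCAS(A)-Wnt9a replicate 2 and -0.011 without its replicate 3. Calls on chromosomes 11 to 28 numbered 104 with DESeq2 and 138 with the replicate block, against 62 in the reported fit. They numbered 37 to 76 when 1 library was left out. With at least 1.5-fold change there were 34 of 4007, against 116 of 12133, or 0.956%, over all tested genes. The shares lay closer together at this criterion. The share over all tested genes moved as well. It was 3.64% with DESeq2, against 2.63% on chromosomes 11 to 28, and 4.16% against 3.44% with the replicate block. It was 1.19% against 0.917% without RCAS(A) replicate 4, and 2.40% against 1.88% without RCAS(A)-Wnt9a replicate 3. The median log2 fold change ranged from -0.041 to -0.011 when 1 library was left out. The cause of these differences was not tested. The labels share only the numbers 2 and 3 between groups, so the replicate block used 4 libraries. Same-numbered libraries correlated at -0.0092 and 0.19 in their deviations. Without a comparison to libraries of different number, these values cannot decide whether the numbers pair the libraries. The reported fit used no pairing. The median level on log2(CPM + 1) was 4.10 without a minimum count and 5.16 with at least 100 counts, against 4.79, and the median span was 8.94 and 10.8 kb, against 10.1 kb, and 9.58 kb on chromosomes 13 to 28; these move with the genes admitted. No gene named by the rule reversed direction. Low counts kept 398 genes of chromosomes 11 to 28 out of the test. Of the 62 called genes, 30 kept the call in all 6 fits with a library left out; 27, 22 and 26 calls were lost without RCAS(A) replicate 2, 3 and 4, and 7, 20 and 12 without RCAS(A)-Wnt9a replicate 1, 2 and 3.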
